A study of Drosophila melanogaster with 6 samples.

Results

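The genes described here encode the proteins of the mitochondrial ribosome. They were taken as all genes of the count files whose FlyBase symbol starts with mRpL or mRpS, and they numbered 71 of 17559 genes, 47 named for the large subunit (mRpL) and 24 for the small subunit (mRpS). The RNA came from adult Drosophila melanogaster testes, in 3 control and 3 miR-2b-1 overexpression samples from pools of testes of flies aged 3 to 5 days. Crosses were kept at 28 °C. The control carried the actin5C-Gal4 driver crossed to w1118, and the other group carried the same driver with a UAS-miR-2b-1 transgene. The driver was present in both groups. It is known as a broadly active driver, and where in the testis the transgene was expressed was not measured in these libraries. The transgene and the parental strain differed between the same groups, and their effects cannot be told apart. The labels and the fly stocks of the methods give w1118 as the parental strain of the control, while the study's description of the data names OreR. According to the methods, testes were pooled for each replicate of RNA extraction, and the study describes the overexpressing testes as bulged. Nothing in the labels says whether the replicates came from separate cultures, so p-values measure the spread between these samples, which may be technical.

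The mitochondrial ribosome, or mitoribosome, translates the few proteins that the mitochondrial genome encodes, which are core subunits of the respiratory chain and the ATP synthase. Its ribosomal RNAs are transcribed inside the organelle, whereas all of its proteins in the fly are encoded in the nucleus, made in the cytosol and imported. Many have a counterpart in the bacterial ribosome, and others are found in mitochondria alone. In the fly testis, mitochondria fuse after meiosis into the nebenkern, which then elongates along the growing sperm tail.

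The total count on genes ranged from 18047619 to 20282355 in the control and from 21202512 to 27789620 under overexpression. The overexpressed gene mir-2b-1 had 0 counts in each of the 6 libraries, so its counts could not check the labels. The testis label was borne out by late spermatocyte and spermatid markers such as dj and Mst87F, with all 13 listed genes counted and a summed level of 18095 to 23377 CPM per library (counts relative to the size of the library, scaled by edgeR's TMM method). Genes of the accessory gland and ejaculatory duct, organs next to the testis, took from 0.020% to 1.2% of the counts and were uneven within both groups.

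Of the 71 genes, 70 had counts in every library, from 47 to 2393 counts per gene and library, and all 70 passed edgeR's filterByExpr filter on low counts. The exception was mRpL53 (FBgn0050481, chromosome 2R, 13954195 to 13955664 in the BDGP6 assembly), with 0 counts in each of the 6 libraries, which allows up to 3 counts in each. All of its exon bases are shared with other annotated genes, CG33155 on the same strand and AGO1 on the opposite strand. Of the 354 nuclear protein-coding genes with every exon base shared in this way, 345 (97.5%) were at 0 in all libraries, against 364 of 13318 (2.73%) of the others, so no level of mRpL53 can be read from these counts. Among the other genes, 30 shared no exon base with another gene and 7 shared over 20%, namely mRpL13, mRpL17, mRpL48, mRpS9, mRpS14, mRpS21 and mRpS24, whose counts are uncertain. The identifiers of mRpS5 and mRpS34 were not matched, and these genes were not analysed here.

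Most mitoribosomal protein genes were slightly higher under miR-2b-1 overexpression, by amounts that for single genes rarely passed the test. Their summed level was 1338.5, 1339.3 and 1190.5 CPM in control replicates 1, 2 and 3, and 1387.6, 1472.5 and 1415.3 CPM in overexpression replicates 1, 2 and 3. Every overexpression library was thus above every control library, with means of 1289 ± 85.7 CPM (SD, n = 3) and 1425 ± 43.3 CPM (SD, n = 3). In bulk samples, a change in the share of a cell type and a change in RNA per cell cannot be told apart. Of the 70 genes, 57 (81.4%) had a positive log2 fold change, against 51.6% of the 12426 genes that passed the filter. Their median log2 fold change was 0.22, with quartiles of 0.09 and 0.35, and the median over all genes passing the filter was 0.01. The groups did not overlap in 23 genes (32.9%), all higher under overexpression, beside 12.4% of the 15667 genes with at least 1 count and 14.2% of those passing the filter. In the other direction the number was 0, beside 9.9% and 11.1%.

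**Figure D1:**
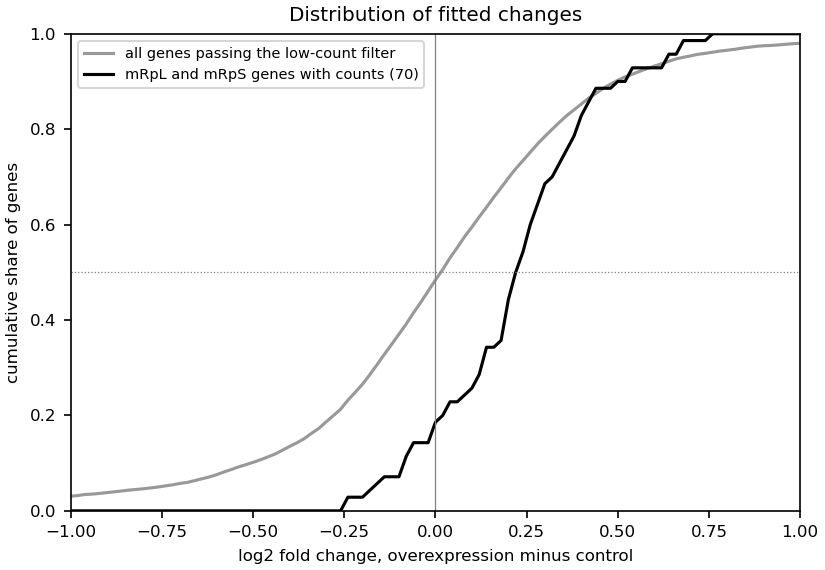
Cumulative share of genes (vertical axis) by log2 fold change, overexpression minus control (horizontal axis), for the 70 mitoribosomal protein genes with counts and for all 12426 genes passing the low-count filter. The curve of the mitoribosomal protein genes crosses the dotted midline at 0.22 and that of all genes at 0.01, and no mitoribosomal protein gene lies below -0.25 or above 0.76.

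In the plot of cumulative shares, the curve of the mitoribosomal protein genes lay to the right of that of all genes over most of its length and met it near its upper end. The list as a whole was therefore shifted by a small amount, and it lacked the large changes that other genes of these libraries showed.

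By the quasi-likelihood test of edgeR, adjusted over all genes by the Benjamini-Hochberg method, 1 of the 71 genes passed an adjusted p of 0.05, which is 1.41%, beside 2.81% of all genes in either direction and 1.29% called higher. At an unadjusted p under 0.05, 12 of the 70 genes (17.1%) were higher and 0 were lower, beside 11.2% and 8.05% of the genes passing the filter. These were mRpL1, mRpL19, mRpL32, mRpL38, mRpL40, mRpL41, mRpL46, mRpL48, mRpS22, mRpS29, mRpS31 and mRpS35. The share of genes called at the adjusted threshold was thus near that of the background.

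Control replicate 3 stood low for these genes. It was the lowest of the 6 libraries in 43 of the 70 genes, with a median deviation of -0.25 on the log2 scale from each gene's own mean, whereas the other libraries lay between -0.06 and 0.16. Over all genes passing the filter, the median deviation of control replicate 3 was -0.03. Without control replicate 3, 54 of the 70 genes had a positive log2 fold change, and their median was 0.15 beside 0.01 for all genes. The highest library was overexpression replicate 2, the top of the 6 in 26 genes, and without it 57 genes were positive with a median of 0.20 beside 0.04.

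**Figure D2:**
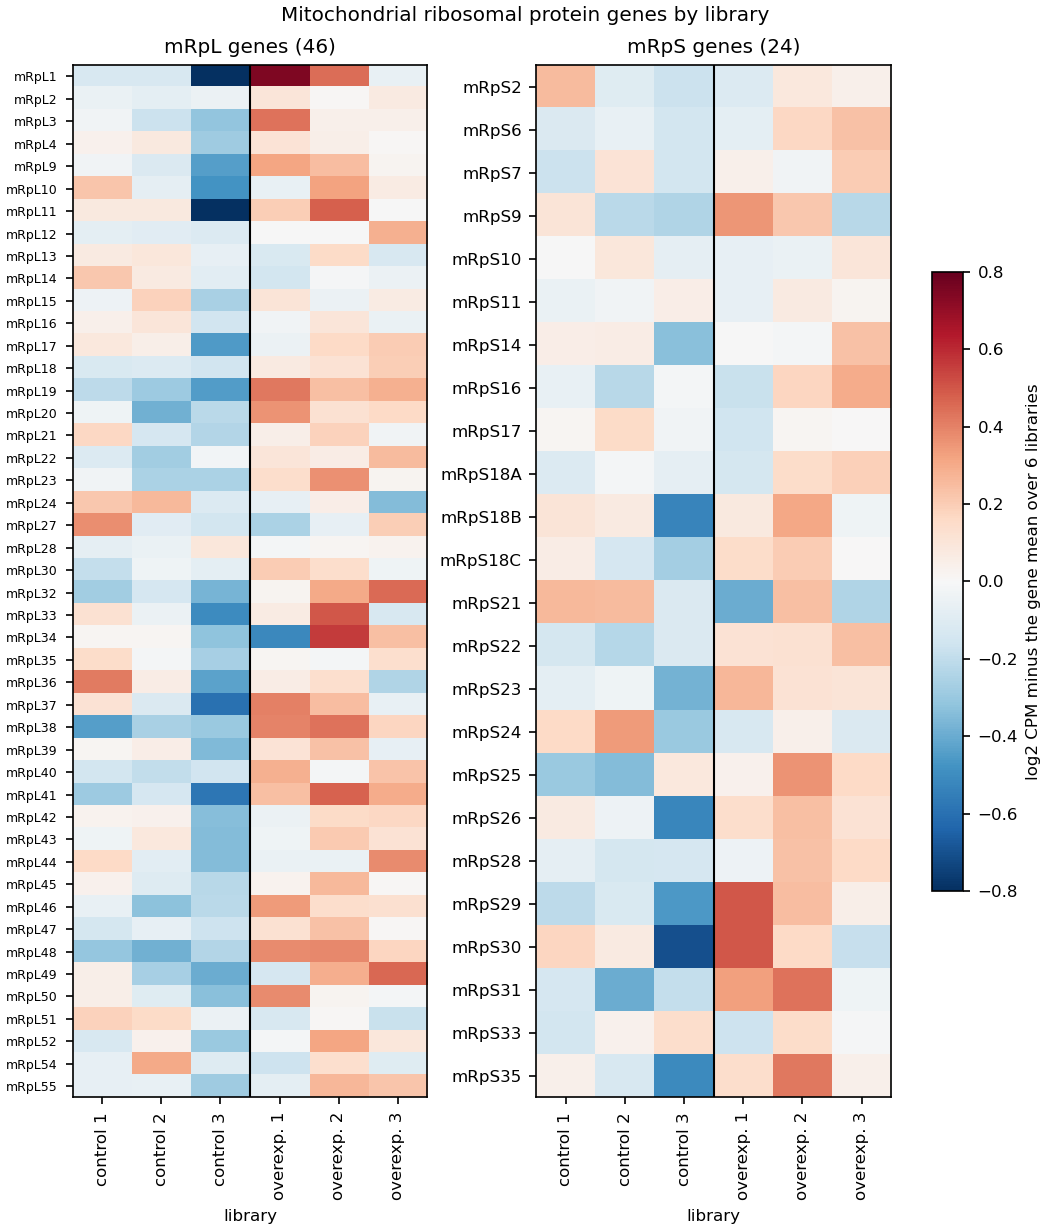
Colour scale of log2 CPM minus the gene's mean over the 6 libraries, with 1 row per mRpL gene (left, 46) or mRpS gene (right, 24) and 1 column per library, control left of the black line. Control replicate 3 holds most of the deep blue cells and was the lowest library in 43 of the 70 genes.

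The colour map of all genes by library also showed where the groups were even across replicates, as in mRpL19, mRpL38 and mRpL48, and where a single library set the value, as in mRpL11.

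Among proteins of the large subunit, the gene that rose was mRpL19 (FBgn0037608, chromosome 3R, 8674109 to 8675196). Its bacterial counterpart lies at the interface between the subunits. The level of mRpL19 was 14.7, 13.9 and 12.4 CPM in the control and 22.8, 20.1 and 20.8 CPM under overexpression. The lowest overexpression library was well above the highest control library. The means were 13.7 ± 1.15 and 21.2 ± 1.42 CPM (SD, n = 3), and mRpL19 rose by a log2 fold change of 0.63 (standard error, SE, 0.163, adjusted p = 0.0462 in edgeR's quasi-likelihood test, Benjamini-Hochberg adjusted). It shares no exon base with another gene. The call of mRpL19 was lost on leaving out any of the 3 control replicates or overexpression replicates 1 or 2 (adjusted p = 0.0745, 0.187, 0.122, 0.185 and 0.123 in that order), while without overexpression replicate 3 it was 0.0439. It was also lost with upper-quartile normalization (0.0759), with the newer quasi-likelihood method (0.0586), with a prior that was not robust (0.0893) and with the replicate number as a block (0.0591), and over all alternatives the adjusted p ranged from 0.0128 to 0.187.

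The next lowest p-values among the large subunit genes belonged to proteins without a bacterial counterpart. In the human mitoribosome, the counterparts of mRpL38, mRpL40, mRpL46 and mRpL48 are parts of the central protuberance, the crest of the large subunit. The level of mRpL38 (chromosome X, 14226289 to 14227949) was 6.97, 7.92 and 7.71 CPM in the control and 12.5, 12.9 and 10.7 CPM under overexpression. The groups were apart, but with a log2 fold change of 0.68 (SE 0.182) the adjusted p was 0.0570 by edgeR's quasi-likelihood test. DESeq2 placed mRpL38 past the threshold (adjusted p = 0.0365), as did a minimum of 10 counts in every sample (0.0455).

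The level of mRpL48 (chromosome 2L, 1710462 to 1711465) was 7.91, 7.50 and 8.36 CPM in the control and 12.8, 12.8 and 11.1 CPM under overexpression, again without overlap. The log2 difference of 0.63 (SE 0.178) had an adjusted p of 0.0739 by edgeR's quasi-likelihood test. Since 20.8% of its exon bases are shared with frtz on the opposite strand, its count is uncertain, although frtz itself had 1.6 ± 0.509 and 1.98 ± 0.222 CPM (SD, n = 3) in the control and under overexpression. Of the genes named above for the central protuberance, mRpL40 (log2 fold change 0.34, SE 0.160) and mRpL46 (0.41, SE 0.185) had smaller differences. In both, the control and overexpression libraries did not overlap. The genes named for this structure were all picked from those with an unadjusted p under 0.05 by edgeR's quasi-likelihood test. The central protuberance as a whole was not examined.

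mRpL41 (chromosome 2R, 15217024 to 15217617), also without a bacterial counterpart, had 7.58, 8.48 and 6.19 CPM in the control and 11, 12.9 and 11.4 CPM under overexpression. No library of one group reached the other, and the log2 fold change was 0.67 (SE 0.191, adjusted p = 0.0748 by edgeR's quasi-likelihood test). mRpL32, a zinc-binding protein whose yeast counterpart is processed by the m-AAA protease before assembly, had 13.2, 14.5 and 12.3 CPM against 16.2, 19.7 and 21.9 CPM. Its groups were apart but its overexpression replicates were spread, and the log2 fold change was 0.53 (SE 0.173, adjusted p = 0.131 by the same test).

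mRpL1 forms the mobile stalk at which the empty tRNA leaves the ribosome. It had the largest log2 fold change of the 70 genes, 0.76 (SE 0.250), and also the largest spread within groups, an SD of 0.42 on the log2 scale. The level was 8.24, 8.22 and 4.85 CPM in the control and 15.2, 12.3 and 8.65 CPM under overexpression. The lowest overexpression library was only just above the highest control library, and the adjusted p was 0.148 by edgeR's quasi-likelihood test. At the other end of the spread, mRpL2, a core protein of the peptidyl transferase centre, had an SD of 0.03 on the log2 scale within groups. Its 21.2, 20.9 and 21.3 CPM in the control and 23.6, 22.09 and 23.1 CPM under overexpression did not overlap, at a log2 fold change of 0.12 (SE 0.154). mRpL18 was likewise even within groups (SD 0.05, log2 scale) and apart between them, with a log2 fold change of 0.26 (SE 0.182).

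**Figure D3:**
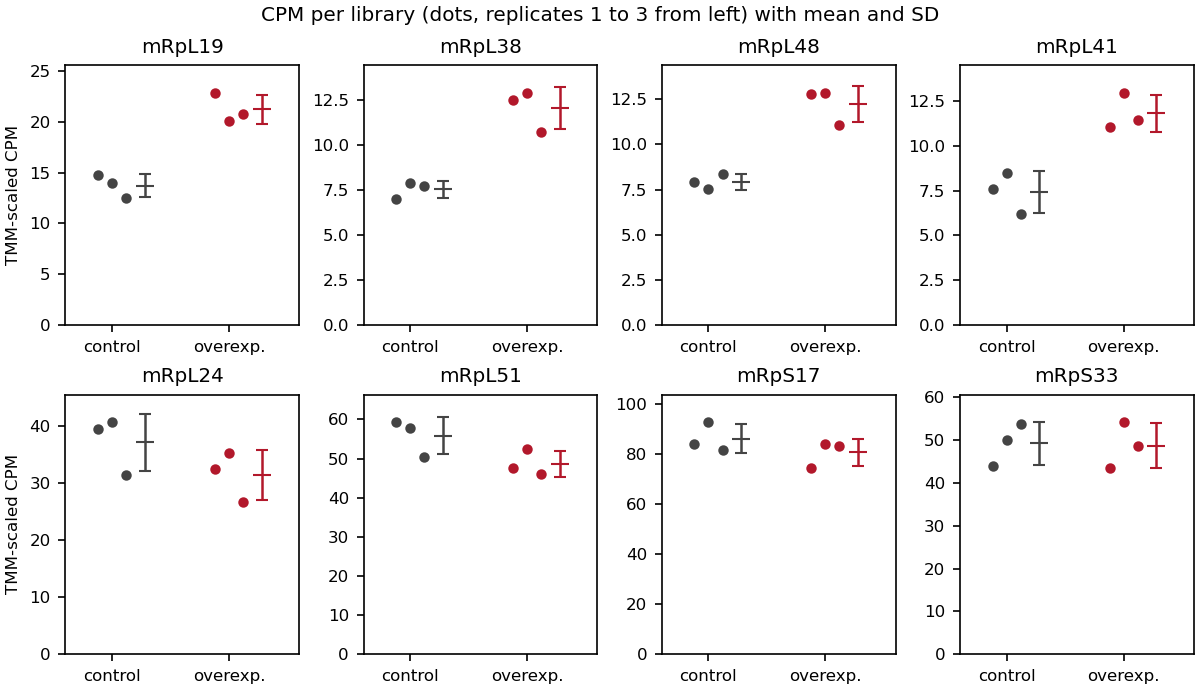
TMM-scaled CPM (vertical axes, each from 0) of 8 mitoribosomal protein genes in the 3 control and 3 overexpression libraries, with points for replicates 1 to 3 and a bar for the mean ± SD. The top row, mRpL19, mRpL38, mRpL48 and mRpL41, has no overlap between groups (mRpL19 13.7 against 21.2 CPM), while the groups of mRpL24, mRpL51, mRpS17 and mRpS33 overlap.

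Negative log2 fold changes were found in 13 of the 70 genes, and none of them passed the test. Among them, mRpL24, whose bacterial counterpart starts assembly of the large subunit, had the lowest p of the large subunit genes. Its level was 39.4, 40.6 and 31.4 CPM in the control and 32.4, 35.2 and 26.6 CPM under overexpression. The groups overlapped, with a log2 fold change of -0.24 (SE 0.167, adjusted p = 0.581 by edgeR's quasi-likelihood test). mRpL51, one of the most abundant large subunit transcripts per length, had 59.3, 57.9 and 50.4 CPM against 47.6, 52.4 and 46 CPM, a log2 fold change of -0.20 (SE 0.144, adjusted p = 0.612 by the same test). The panels of these genes in the plot of single libraries show ranges that meet between the groups. mRpL14, at the face of the large subunit that meets the small one, was at -0.14 (log2 fold change, SE 0.197).

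In the small subunit, no gene passed the test. The one with the lowest p was mRpS29 (chromosome 2R, 22418937 to 22420376), a GTP-binding protein whose human counterpart is also known as the death-associated protein DAP3. Its level was 14.8, 15.7 and 12.4 CPM in the control and 24.2, 20.4 and 17.7 CPM under overexpression. The groups did not overlap, and the log2 fold change was 0.53 (SE 0.176, adjusted p = 0.136 by edgeR's quasi-likelihood test). mRpS31, which has no bacterial counterpart, had 11.7, 9.71 and 11.2 CPM against 16.1, 17.4 and 12.5 CPM. It was again higher in every overexpression library, with a log2 fold change of 0.50 (SE 0.181, adjusted p = 0.186 by the same test).

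Among the most abundant mRpS transcripts per length, mRpS17, mRpS33, mRpS10 and mRpS18A overlapped between the groups. mRpS17, which binds the ribosomal RNA early in assembly in bacteria, had 84.0, 92.7 and 81.6 CPM in the control and 74.6, 84.0 and 83.4 CPM under overexpression (log2 fold change -0.09, SE 0.136). The level of mRpS10 was 57.6 ± 3.34 against 57.1 ± 3.65 CPM (SD, n = 3) and that of mRpS33 was 49.3 ± 4.96 against 48.7 ± 5.33 CPM (SD, n = 3). For mRpS10 and mRpS33 the log2 fold changes were -0.01 and -0.02 (SE 0.140 and 0.151), and their signs changed with the processing. mRpS11 was also near 0, at 0.02 (SE 0.169), with the smallest spread of the small subunit genes (SD 0.06, log2 scale), and its sign likewise changed with the processing. mRpS18A had 40.2 ± 1.36 against 44.2 ± 5.24 CPM (SD, n = 3). mRpS21, whose bacterial counterpart lies near the site where the mRNA is bound, was at -0.25 (log2 fold change, SE 0.190), the most negative of the 70 genes, and mRpS24 had -0.16 (SE 0.225). Both share much of their exon sequence with genes on the opposite strand, 48.0% with CG8870 for mRpS21 and 55.3% with TBC1d7 for mRpS24.

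**Figure D4:**
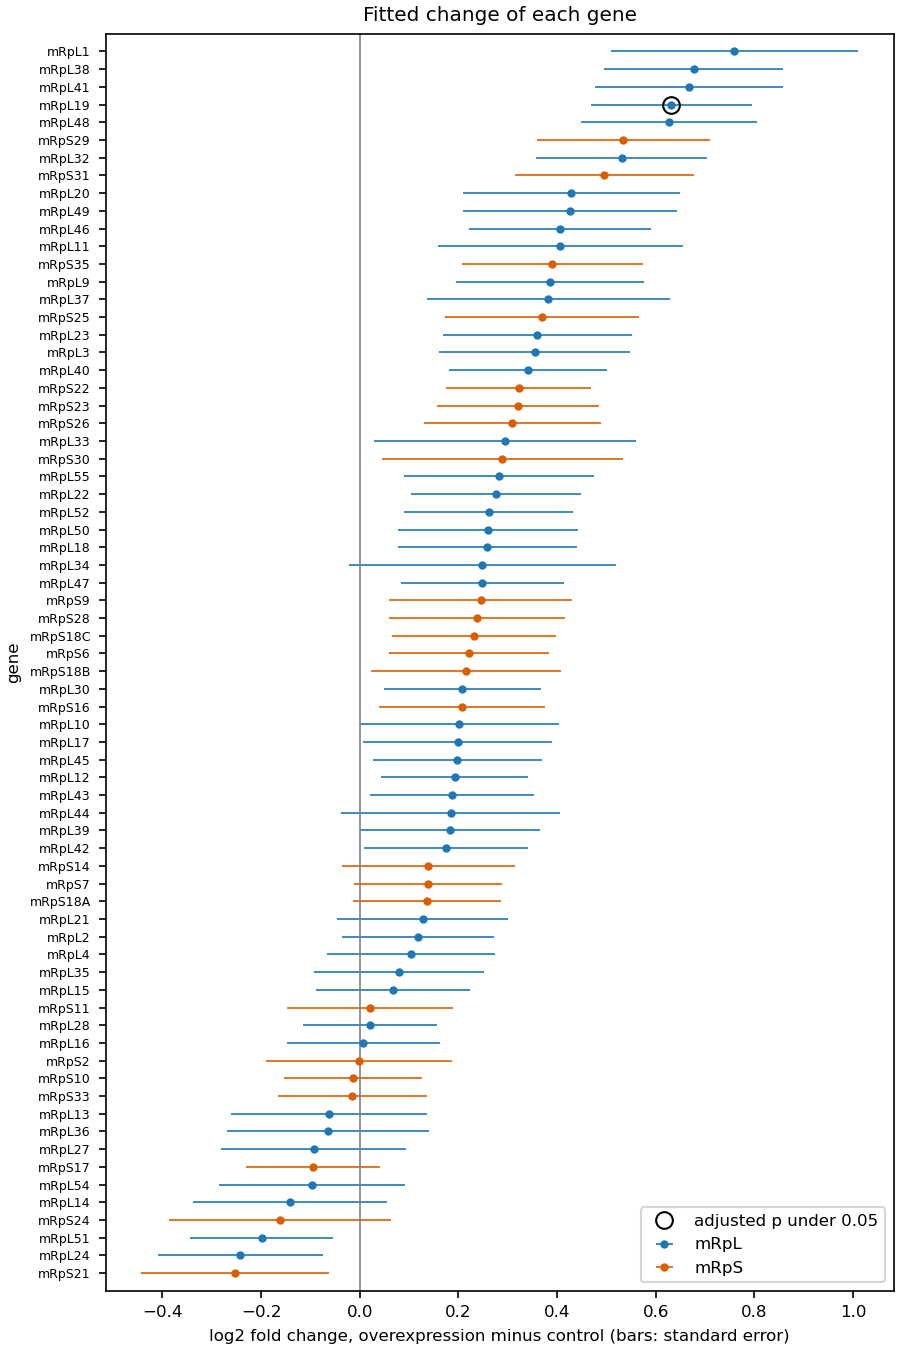
Log2 fold change, overexpression minus control (horizontal axis), of the 70 mitoribosomal protein genes with counts, ordered by value, with bars for the standard error of the fit and a ring for the gene at an adjusted p under 0.05 (mRpL19). Points of mRpL genes (blue) and mRpS genes (orange) are mixed along the order, from -0.25 (mRpS21) to 0.76 (mRpL1).

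The subunits, taken by gene name only, did not stand apart in the ordered plot of fitted changes. Of 46 large subunit genes, 39 were positive in log2 fold change, at a median of 0.23, and of 24 small subunit genes 18 did, with a median of 0.22. The summed level, on which no test was made, was 719 ± 57.1 against 801 ± 19.5 CPM (SD, n = 3) for the large subunit and 571 ± 29.6 against 624 ± 26.3 CPM (SD, n = 3) for the small subunit. In both, every overexpression library was above every control library. For the small subunit this was only just so, with 594 CPM in control replicate 2 and 596 CPM in overexpression replicate 1.

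By the number in their names, 41 genes belong to the classes with a bacterial counterpart (mRpL up to 36 and mRpS up to 21) and 29 have higher numbers, which mostly mark proteins found in mitochondria alone. The split is by name only. The human counterpart of mRpS24, for example, is related to a bacterial protein, and those of mRpS30 and mRpS18A lie in the large subunit in spite of their names. Of the 29 genes with higher numbers, 25 had a positive log2 fold change, the median was 0.29, and 12 were without overlap between groups. Of the 41 others, 32 were positive, with a median of 0.19, and 11 were without overlap. For comparison, 14.2% of all genes passing the filter were higher under overexpression without overlap. Within the small subunit the classes were further apart. The 13 genes numbered up to 21 had a median of 0.14 and 0 genes without overlap, and the 11 higher numbers had a median of 0.32 and 6 such genes. The difference between these classes was not tested, and it was not separated from the level per length. The genes numbered up to 21 included mRpS17, mRpS10 and mRpS18A at 179, 111 and 90.7 CPM per kb of coding sequence. The higher numbers included mRpS33 at 145.

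By chromosome arm, the median log2 fold change was 0.29 for 11 genes on X, 0.06 for 12 genes on 2L, 0.24 for 11 on 2R, 0.22 for 15 on 3L and 0.25 for 21 on 3R. Over all genes passing the filter, the arm medians were 0.09 on X, -0.02 on 2L, 0.01 on 2R, -0.0048 on 3L and 0.01 on 3R. On 2L, 7 of 12 genes had a positive value, and on 3L 14 of 15.

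To compare levels between genes, the CPM was divided by the length of the coding sequence in kilobases. On this scale the median level of the 70 genes was 20.7 CPM per kb, from 4.10 for mRpL37 to 179 for mRpS17. This median lay above 61.2% of the 10957 coding genes that passed the filter, whose own median was 11 CPM per kb. The highest levels after mRpS17 were those of mRpS33 (145 CPM per kb), mRpS10 (111), mRpL51 (100.1) and mRpS18A (90.7). The lowest after mRpL37 were those of mRpL44 (6.82 CPM per kb), mRpS30 (7.68), mRpL38 (7.85) and mRpL3 (8.57). Transcripts of proteins that occur together in one particle thus differed widely in level on this scale. The scale divides by coding length, which was 339 to 522 bp in the 5 highest genes and 963 to 1671 bp in the 5 lowest. mRpL37, mRpL44 and mRpS30 overlapped between the groups, and their log2 fold changes were 0.38, 0.18 and 0.29 (SE 0.246, 0.222 and 0.245). mRpL3, whose counterparts reach into the peptidyl transferase centre, had 8.16 ± 0.822 against 10.4 ± 1.74 CPM (SD, n = 3) without overlap, at 0.36 (SE 0.194).

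The genes with the highest levels per length had the smaller differences, while those with low and middle levels were alike in median. Across the 70 genes, log2 CPM per kb and log2 fold change were related with a Spearman rho of -0.48 and a Pearson r of -0.50. Genes of one set of libraries are not independent replicates, and level and difference come from the same counts, so these are descriptions. For all 10957 coding genes the values were -0.17 and -0.09. Among the 24 genes with the lowest levels (4.10 to 16.4 CPM per kb), 20 were positive, the median log2 fold change was 0.28 and 10 were without overlap between groups. Among the 23 in the middle, 22 were positive, the median was 0.28 and 11 were without overlap. Among the 23 with the highest levels (37.3 to 179 CPM per kb), 15 were positive, the median was 0.14 and 2 were without overlap. The share over all genes passing the filter, higher without overlap, was 14.2%.

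**Figure D5:**
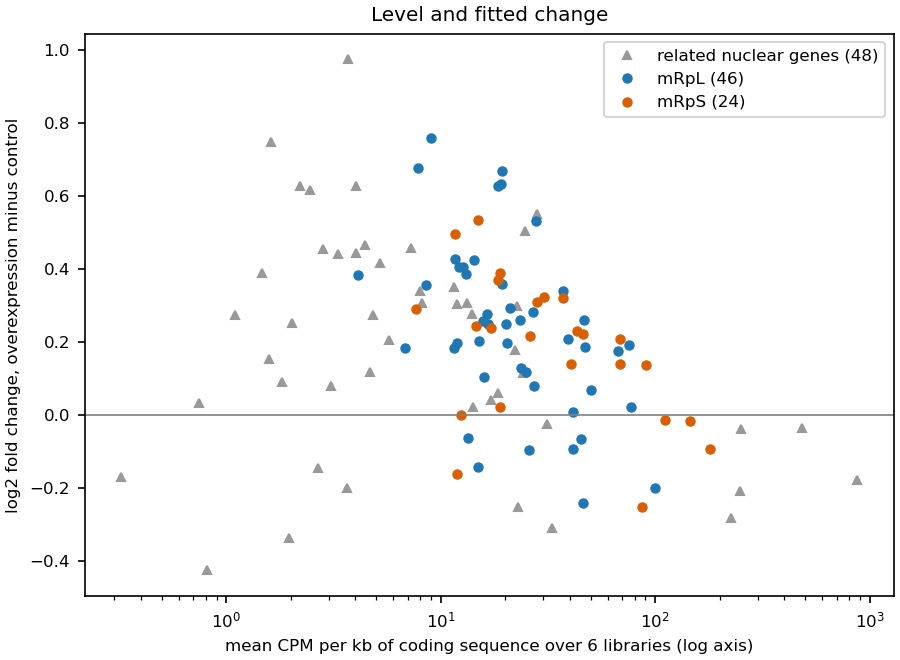
Log2 fold change, overexpression minus control (vertical axis), against mean CPM per kb of coding sequence over the 6 libraries (horizontal axis, log scale) for 46 mRpL genes, 24 mRpS genes and 48 related nuclear genes of mitochondrial gene expression. Genes with over 100 CPM per kb lie at or below 0, such as mRpS17 at 179 CPM per kb and -0.09.

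In the plot of level and change, the related genes with over 100 CPM per kb also had negative log2 fold changes, from -0.28 for CysRS-m to -0.04 for TrpRS-m. The mitoribosomal protein genes varied less within groups than most genes, with a median SD of 0.17 on the log2 scale beside 0.23 for all genes passing the filter. The widest after mRpL1 were mRpS30 (0.42) and mRpL34 (0.41). The value of mRpL34 was 4.83, 4.83 and 3.8 CPM in the control and 3.31, 7.06 and 5.65 CPM under overexpression, so that the groups overlapped fully.

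Mitochondrial translation needs further nuclear genes, and these were read from lists for the other mitoribosome genes, translation factors, tRNA synthetases, RNA processing and DNA maintenance. Of 48 such genes with counts, 35 had a positive and 13 a negative log2 fold change and a median of 0.23, close to that of the mitoribosomal protein genes. In 12 of the 48 genes every overexpression library was higher and in 2 every one was lower. Among all genes passing the filter the shares were 14.2% and 11.1%. Of the 48 genes 1, mRF1, passed the test, beside 2.81% of all genes. The 3 mitoribosome genes with other names were all positive. They are bonsai, the counterpart of bacterial ribosomal protein S15, with 0.30 (SE 0.169), tko, the counterpart of S12, with 0.18 (SE 0.184), and CRIF, whose human counterpart sits at the exit of the peptide tunnel. CRIF had 14.6, 16.4 and 16.5 CPM in the control and 27.3, 23.0 and 19.3 CPM under overexpression, without overlap, and a log2 fold change of 0.55 (SE 0.173, adjusted p = 0.116 by edgeR's quasi-likelihood test).

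mRF1 (chromosome 2L, 13219979 to 13221398) encodes a release factor, which ends translation at stop codons. It had 3.57, 2.67 and 2.57 CPM in the control and 5.78, 6.20 and 5.37 CPM under overexpression. The groups did not overlap, and mRF1 rose by a log2 fold change of 0.97 (SE 0.240, adjusted p = 0.0347 in edgeR's quasi-likelihood test, Benjamini-Hochberg adjusted). The call of mRF1 was lost without control replicates 2 or 3 (adjusted p = 0.192 and 0.0889) or overexpression replicates 1 or 2 (0.141 and 0.169), with the replicate number as a block (0.0730) and with a prior that was not robust (0.0854), and its range over all alternatives was 0.0182 to 0.192.

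Of the 12 translation factors with counts, 8 were positive, with a median log2 fold change of 0.21. mEFG1, the elongation factor that moves the ribosome along the mRNA, had 7.10 ± 0.460 against 11 ± 2.10 CPM (SD, n = 3), without overlap (log2 fold change 0.63, SE 0.199). mEFTu1, which delivers charged tRNAs, had 30.1 ± 6.55 against 42.7 ± 5.01 CPM (SD, n = 3) and overlapped slightly between the groups (log2 fold change 0.50, SE 0.175). The most abundant factors were on the other side. mEFTs, the exchange factor of mEFTu, had 883 ± 108 against 780 ± 56.4 CPM (SD, n = 3) and a log2 fold change of -0.18 (SE 0.144). mEFTu2, a second gene for the delivering factor, had 346 ± 57.5 against 337 ± 10.9 CPM, and OXA1L, which inserts new proteins into the inner membrane, 352 ± 41.9 against 305 ± 24.7 CPM (SD, n = 3). In all 3 the groups overlapped.

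The 15 mitochondrial tRNA synthetases with counts had 10 positive and 5 negative values and a median of 0.12. LeuRS-m had 3.14 ± 0.451 against 5.26 ± 1.17 CPM (log2 fold change 0.75, SE 0.255), with no overlap. CysRS-m had 416 ± 64.8 against 342 ± 8.86 CPM (log2 fold change -0.28, SE 0.144), every overexpression library being lower, though it did not pass the test (adjusted p = 0.386 by edgeR's quasi-likelihood test). Of 10 genes for RNA processing and assembly, 8 were positive, and of 8 for DNA maintenance and transcription 6. Of the 3 genes for mitochondrial RNase P, rswl was at 0.31 (log2 fold change, SE 0.168) and scu at -0.31 (SE 0.169), each without overlap between groups, and mldr was at -0.15 (SE 0.233) with overlap, and none passed the test. PolrMT, the RNA polymerase of mitochondria, had 29.0 ± 4.07 against 36.7 ± 4.32 CPM (SD, n = 3) with overlap. All 37 genes of the mitochondrial genome, including both ribosomal RNAs and the 13 protein genes that the mitoribosome translates, were at 0 counts in every library, so neither its RNA nor its products could be compared.

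The summed levels of marker lists overlapped between the groups for every cell type except muscle, whose sum was lower in every overexpression library. Among 8 spermatocyte markers, 6 were positive, comr, aly and topi among them, with a median log2 fold change of 0.35 over the list. The 2 negative ones were mia (-0.50), lower in every overexpression library, and can (-0.15), with overlap. The list's summed level was 232 to 271 CPM in the control and 271 to 309 CPM under overexpression. The 4 markers of early germ cells were all positive, with a median of 0.62 and sums of 69.4 to 85.1 against 68.7 to 104 CPM. Of 13 late spermatocyte and spermatid markers, 12 were negative, with a median of -0.18 and sums of 20376 to 23377 against 18095 to 20562 CPM. None of these germline markers passed the test. Of 6 hub and cyst cell markers, 4 were positive, with sums of 93.9 to 104 against 95.8 to 117 CPM. Of 12 muscle markers 10 were negative, with sums of 1169 to 1205 against 873 to 989 CPM, and 4 fell by edgeR's quasi-likelihood test (Mhc, Mlc1, Mlc2 and TpnC47D). Fat body markers were negative in 7 of 7 (76.7 to 168 against 77.1 to 104 CPM), and accessory gland and ejaculatory duct markers in 18 of 23 (209 to 10823 against 507 to 11597 CPM). Acp95EF was at 0 in every library. The part of these cell types in the difference of the mitoribosomal protein genes was not tested. In a fit with the accessory gland share as a covariate, the median log2 fold change was again 0.22 and 58 of 70 genes were positive. That share ran from 0.020% to 1.1% in the control and from 0.053% to 1.2% under overexpression. With such similar ranges the fit could hardly move the group difference, and it decides nothing about cell types.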

How the data were processed

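Gene expression in testes was compared between 3 control samples and 3 samples overexpressing miR-2b-1. The authors aligned the reads with RNA STAR, counted them per gene with featureCounts on an Ensembl annotation and deposited raw counts for each sample. How strand and multiply mapped reads were handled is not given in the sources used here. The authors' table of fold changes and p-values, and 6 columns of per-sample values in another table of the series, were not used. Rows that name no gene numbered 0. The genes and lists were chosen with earlier results of these data known.

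The test was run on all 17559 genes with edgeR 4.0.16 under R 4.3.3 (TMM, quasi-likelihood test, robust prior, older method, no filter, Benjamini-Hochberg adjusted p under 0.05). The procedure was tested on simulated data, with planted changes larger than any fitted for the mitoribosomal protein genes. That trial therefore does not cover differences of the size described here. The standard error was the size of the log2 fold change divided by the square root of F. Log2 CPM used a prior count of 2. The floor was set at 3 counts per library and covers only counting error. filterByExpr kept 12426 genes, used as the background. The chi-square per degree of freedom was at least 28.0 in each of the 15 library pairs, so no library repeated another.

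Symbols came from FlyBase names and coordinates from Ensembl release 115, while the authors used an older annotation of the same assembly. Lengths were those of the longest annotated coding sequence, in place of the planned RefSeq protein lengths. Planned promoter motif searches and sequences were not run. Genes named were those called, the 6 lowest p-values in each direction, the 5 highest and lowest levels per length, the 3 largest and smallest spreads, genes at the floor, and in each related list the called genes and up to 3 with the lowest p. A few others (mRpL40, mRpL46, tko, OXA1L, mEFTs and mEFTu2 among them) were named after their values were seen. Alternatives changed the scaling (RLE, upper-quartile), the tool (DESeq2 1.42.0), the filter (filterByExpr, or a minimum of 10 counts per sample), the quasi-likelihood method (newer) or its prior (not robust), the threshold (adjusted p under 0.01) or the model (replicate block, accessory gland share as a covariate), or left out each replicate in turn.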

Additional observations from a re-analysis of the deposited data

How the results depend on the processing

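The median log2 fold change of the 70 genes was positive under every alternative run, from 0.15 without control replicate 3 to 0.26 without control replicate 1, and 0.15 with upper-quartile normalization. Of the named genes, 36 of 39 had the same sign throughout, the exceptions being mRpS10, mRpS11 and mRpS33. The number of mitoribosomal protein genes called was 0 with a prior that was not robust, upper-quartile normalization, the newer quasi-likelihood method and an adjusted p under 0.01, 2 with DESeq2 and with at least 10 counts in every sample (mRpL19 and mRpL38), and 3 with the accessory gland share as a covariate (mRpL19, mRpL38 and mRpL41). With 1 replicate left out it ranged from 0 to 4, the highest without overexpression replicate 3 (mRpL1, mRpL19, mRpL38 and mRpL48). Over all genes the count of 493 became 742 with DESeq2, 236 with a prior that was not robust, 758 with the covariate, 251 at an adjusted p under 0.01, and 205 (without overexpression replicate 2) to 923 (without overexpression replicate 3). With upper-quartile normalization, 223 genes were called higher and 414 lower, against 227 and 266 with TMM. The related genes called were 0 with a prior that was not robust and at an adjusted p under 0.01, and 0 to 3 with a replicate left out (CRIF, mEFG1 and mRF1 without overexpression replicate 3). Mitoribosomal protein genes without overlap between groups numbered 15 higher and 1 lower with upper-quartile normalization, and 2 were lower with filterByExpr. With a replicate left out, where fewer libraries are compared, they numbered 25 to 34 higher and 0 to 6 lower. The shares over all genes under the same settings are not given here, so these counts show nothing particular to the mitoribosomal protein genes. The causes of the changes between settings were not tested.

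With a replicate block, 0 mitoribosomal protein genes and 0 related genes were called, and 349 of all genes. The deviations of same-numbered libraries correlated at -0.58, 0.30 and 0.54 over 12426 genes. The signs differed, so these values do not settle whether same-numbered samples were paired.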
